A study of Arabidopsis thaliana with 23 samples.

Results

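A set of 48 probe sets was described whose signal was higher in Arabidopsis thaliana seedlings given the auxin antagonist PEO-IAA, whether or not IAA was added beside it, and which moved little with IAA alone. The 48 were chosen from 22746 probe sets, controls set aside, by differences among 12 of the 23 arrays and by their mean level on all 23. The rule asked for a mean signal of 100 or more over all arrays, and for a group mean of log2(signal + 7.56) that was at least 0.7 above mock both with PEO-IAA and with PEO-IAA plus IAA. It also asked that 1 µM IAA alone lie between -0.5 and 0.5 of mock. Of 54 probe sets that met these values, 6 were set aside by name: the glutathione transferases GSTU22 and GSTU25, the glycosyltransferases UGT73B4 and UGT73B5, AT2G32020 and AT5G14730. Of the 48, 16 named 1 gene, 1 named several and 31 were unnamed here, so for these 31 it could not be checked whether any belongs to the glycosyltransferase or cytochrome P450 families, which the rule also left out.

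The plants were whole seedlings of the ecotype Col-0, without a transgene or mutation named in the labels, grown for 6 or 7 days on agar and 1 day in shaken liquid medium and treated for 3 h. Replicates 1 to 3 covered 5 groups of 3 arrays. These were a mock treatment, IAA at 1 µM, PEO-IAA at 10 µM alone or together with IAA at 1 µM, and kynurenine at 30 µM. Replicates 4 and 5 covered 4 groups of 2 arrays, namely a second mock, PPBo at 10 µM alone or together with IAA at 1 µM, and IAA at 100 nM. The labels do not tell whether the replicates of a group were grown as separate cultures. The p-values therefore describe the spread among these arrays, which could be technical in origin.

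Auxin is perceived when IAA brings TIR1/AFB receptors together with Aux/IAA repressors, which are then degraded so that target genes can be transcribed. PEO-IAA is an IAA derivative that occupies the receptor without allowing this contact, while kynurenine and PPBo lower the amount of IAA by inhibiting the TAA1 and YUCCA steps of its synthesis. Plants also meet foreign small molecules with a detoxification programme of enzymes that oxidise, conjugate and export them, carried out in part by glutathione transferases, glycosyltransferases and MATE-type efflux carriers.

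Signals below are MAS5 intensities, given in the order of the replicate numbers, and differences are log2 differences between group means ± SE from 1 limma fit of all 23 arrays. For PEO-IAA, PEO-IAA plus IAA and 1 µM IAA against mock they describe what the rule selected, and no test is given. The third 1 µM IAA array stood apart. GAPDH probe sets at the 3′ and 5′ ends of the transcript, whose ratio rises as RNA degrades, gave a ratio of 24.4 there and of 1.19 to 2.05 on the other 22 arrays. Over probe sets this array correlated with the others at a median of 0.925, where the other 22 had 0.968 to 0.977. The rubisco activase gene RCA, the 1 shoot marker tested, had a signal of 12865 to 19396 on all arrays. The summed signal of 5 root markers was 1098 to 1820 in mock 1 to 3, 501 to 1244 with PEO-IAA and 748 to 1614 with PEO-IAA plus IAA, and 3401 to 3701 in mock 4 and 5. With PEO-IAA 4 of the 5 were called lower (limma, adjusted p below 0.05), against 0.301% of all probe sets, and with PEO-IAA plus IAA none was, with 2 at an unadjusted p under 0.05. Against PEO-IAA alone, 3 of the 5 were called higher with IAA added, against 0.678% of all probe sets. The median log2 difference of the 5 was 1.76 in that comparison, so these markers moved with the treatments within 3 h. The part of the root markers in the values below was not tested. In whole seedlings fewer cells of a type and less RNA per cell cannot be told apart.

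**Figure D1:**
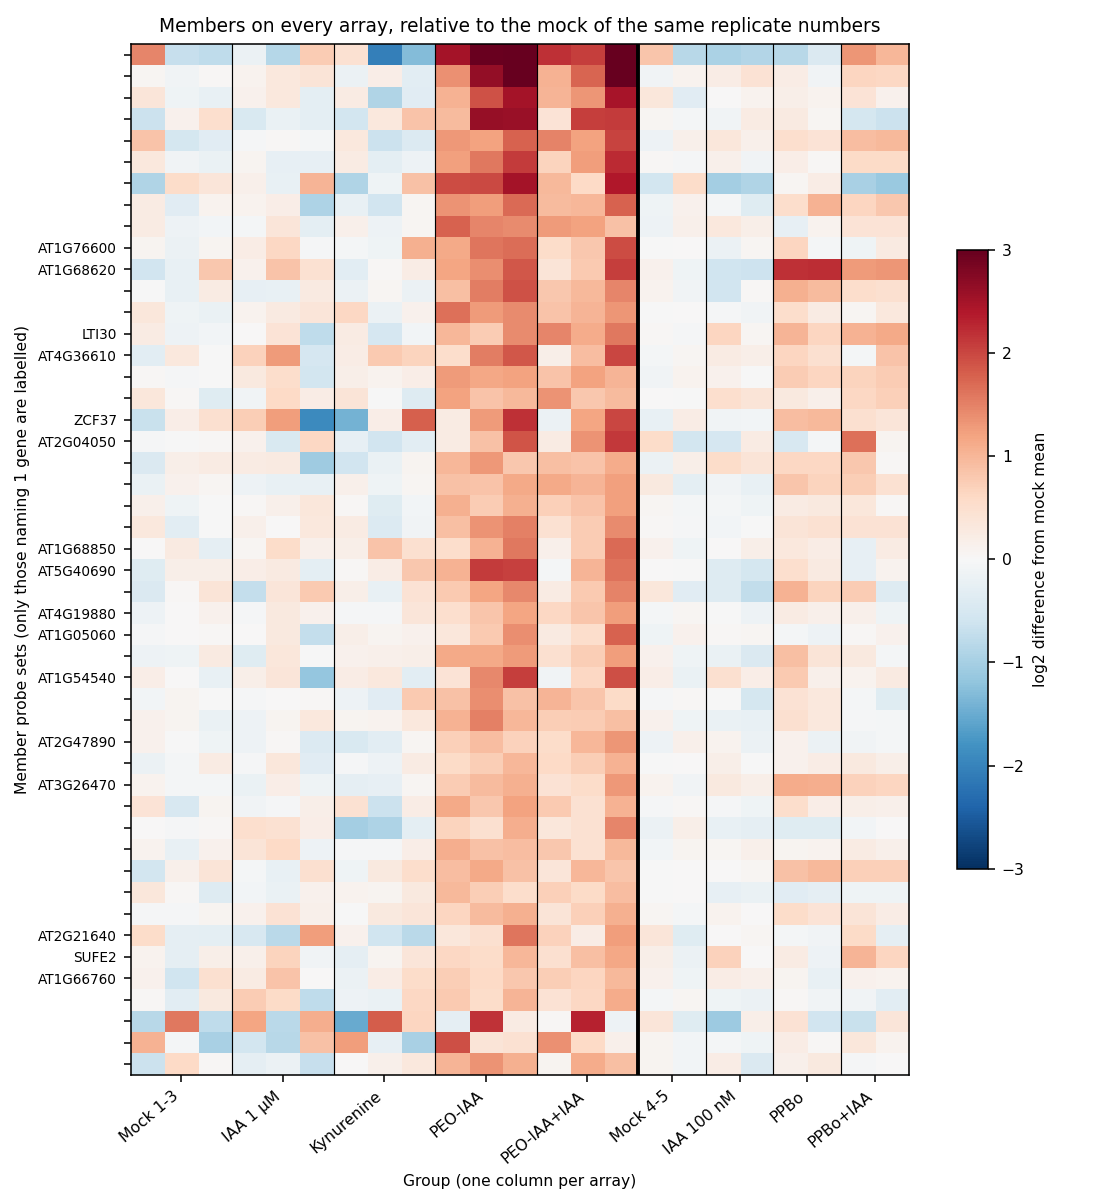
Each row is 1 of the 48 member probe sets, sorted by the smaller of its 2 selected differences, and each column is 1 array; colour is the log2 difference from the mean of the mock arrays with the same replicate numbers, with the scale ending at -3 and 3. The PEO-IAA columns and the PEO-IAA+IAA columns are red in nearly every row, and the PPBo columns are red in some rows such as AT1G68620 and AT3G26470.

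Across the 48 the selected difference had a median of 1.06 with PEO-IAA (0.72 to 2.95) and of 0.89 with PEO-IAA plus IAA (0.70 to 2.56), beside a median of 0 to 2 decimals over the 15922 probe sets tested. With PEO-IAA, all 3 arrays lay above all 3 mock arrays in 44 of the 48, against 6.12% of all probe sets tested, and with PEO-IAA plus IAA in 35 of the 48, against 6.58%. With 1 µM IAA the arrays lay above mock in 3 of the 48, against 7.97%, and below in 0, against 7.94%. Against all 5 mock arrays, of which the rule used 3, the PEO-IAA arrays were all higher in 38 members (3.71% of all tested), the PEO-IAA plus IAA arrays in 32 (4.06%), and both sets of arrays in 31 (1.17%). As the rule chose the members on these arrays, the 2 further mocks aside, nothing is read from any of these shares.

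Same-numbered arrays moved together: their deviations from the group means correlated with those of mock 1 to 3 at 0.41 to 0.55 for PEO-IAA and 0.49 to 0.64 for PEO-IAA plus IAA, across probe sets, so a treated array is also set beside the mock of its number. Within numbers, 47 of the 48 members were higher than mock in all 3 pairs with PEO-IAA, and 47 with PEO-IAA plus IAA, which again describes what the rule chose. The named exceptions were AT2G21640 in the first pair with PEO-IAA, at -0.22, and AT1G54540 in the first pair with IAA added, at -0.32. Overlap of groups below is over all arrays, without regard to number. The SEs and limma calls of every PEO-IAA comparison also leave the number out, and no fit that includes it was run for them.

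The arrays of 1 treatment did not respond alike. The median difference of the 48 from the mock mean was 0.96, 1.17 and 1.33 on the PEO-IAA arrays and 0.64, 0.84 and 1.31 on the PEO-IAA plus IAA arrays. The third PEO-IAA plus IAA array thus carried much of that group's mean. Without it the rule found 25 probe sets, 24 of them among the 48, and of the 16 named genes only LTI30, AT4G19880, AT2G04050 and AT2G47890 still met it. That array did not stand apart in the overall measures, with a median correlation of 0.969 and a GAPDH ratio of 1.79. Without it the differences of the 16 named genes with PEO-IAA plus IAA were 0.26 to 1.29, the lowest in AT1G54540 and the highest in LTI30, against all 3 mock arrays. Without the third 1 µM IAA array, which had the high GAPDH ratio, the rule found 44 probe sets, 41 of them among the 48. Of the 16 named genes 12 still met it, all but AT4G36610, AT1G66760, ZCF37 and AT2G21640. In all, 17 of the 48 met the rule whichever of the 12 arrays was left out, and LTI30 and AT2G47890 were the named genes among them.

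The export genes come first. AT2G04050 and AT1G66760 encode MATE efflux carriers, membrane proteins that move small molecules out of the cytosol. AT2G04050 had signals of 126, 127 and 132 in mock, 153, 242 and 494 with PEO-IAA, and 155, 336 and 582 with PEO-IAA plus IAA. Every treated array was above every array of mock 1 to 3, but the treated arrays ranged widely while these mock arrays hardly varied. Mock 4 and 5 were at 155 and 68.3, a wider spread that overlapped with both treatments. The differences from mock 1 to 3 were 1.00 ± 0.47 and 1.24 ± 0.47, and without the third PEO-IAA array the first was 0.56. AT1G66760 was at 124, 71.3 and 159 in mock, at 194, 174 and 201 with PEO-IAA and at 191, 181 and 227 with PEO-IAA plus IAA. Its groups did not overlap either, although the highest mock array lay close to the lowest treated one, and its differences of 0.72 ± 0.24 and 0.78 ± 0.24 were near the limit of the rule. Without the second mock array, the lowest, they were 0.42 and 0.48. With 1 µM IAA it was at 136, 209 and 114, and without the third IAA array its IAA difference was 0.56, outside the band.

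Genes of redox and sulphur chemistry formed a second group. AT4G19880 encodes a protein of the glutathione S-transferase family, whose members use glutathione to conjugate or reduce reactive compounds. Its signal was 2059, 2307 and 2469 in mock, 3218, 4053 and 5180 with PEO-IAA, and 3485, 4042 and 5459 with PEO-IAA plus IAA, while 1 µM IAA gave 2223, 2770 and 2483. The treated arrays did not overlap with mock, and the differences were 0.84 ± 0.17 with PEO-IAA and 0.90 ± 0.17 with IAA added. SUFE2 (AT1G67810), an activator of the cysteine desulphurase step of iron-sulphur cluster assembly, was at 539, 416 and 567 in mock, at 775, 742 and 1013 with PEO-IAA and at 700, 950 and 1135 with PEO-IAA plus IAA. Its differences were 0.72 ± 0.24 and 0.85 ± 0.24, again without overlap. AT2G21640, a mitochondrial protein used as a marker of oxidative stress, was at 258, 142 and 140 in mock and at 220, 244 and 542 with PEO-IAA, so the groups overlapped. Its PEO-IAA difference of 0.81 ± 0.45 was 0.41 without the third PEO-IAA array, and its IAA difference of -0.01 was -0.64 without the third IAA array, where the signal was 420 against 122 and 95.7. AT1G68850, a class III peroxidase, was at 103, 124 and 84.2 in mock, at 151, 218 and 323 with PEO-IAA and at 114, 178 and 350 with IAA added, and only the first treatment cleared mock. Each array with IAA added was still above the mock of its number, by 0.14, 0.50 and 1.96.

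AT1G68620 and AT4G36610 encode alpha/beta-hydrolase fold proteins, a large class that cleaves esters and related bonds. AT1G68620 was at 45.8, 59.7 and 130 in mock and at 173, 202 and 282 with PEO-IAA, a difference of 1.49 ± 0.36 without overlap. With PEO-IAA plus IAA it was at 96.1, 130 and 324, which overlapped with mock, at a difference of 1.08 ± 0.36. Against the mock of the same number it was higher by 0.96, 1.03 and 1.27; treated and mock signals were both highest on the third arrays. Its IAA difference of 0.48 was 0.89 without the third mock array and 0.66 without the first IAA array, so its place inside the IAA band rests on single arrays. AT4G36610 was at 173, 273 and 216 in mock, at 316, 642 and 808 with PEO-IAA and at 247, 421 and 886 with IAA added. Its differences were 1.31 ± 0.43 and 1.04 ± 0.43, and with IAA added the lowest array lay within the mock range, though each was above the mock of its number. It was the named member nearest the limit of the IAA band, at 0.49 ± 0.43, and without the third IAA array its IAA difference was 0.99, from signals of 355 and 538.

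Genes tied to stress and defence followed. LTI30 (AT3G50970, also XERO2), a dehydrin induced by cold and abscisic acid that binds membranes, was at 972, 735 and 776 in mock, 1642, 1392 and 2223 with PEO-IAA and 2287, 1785 and 2474 with PEO-IAA plus IAA. Every treated array exceeded every mock array. Its difference was 1.06 ± 0.26 with PEO-IAA and 1.39 ± 0.26 with IAA added, the highest of the named members in the latter. AT3G26470, which encodes a protein with the RPW8 powdery mildew resistance domain, was at 331, 292 and 293 in mock, 522, 601 and 649 with PEO-IAA and 412, 450 and 764 with IAA added, again clear of mock in both. Its differences were 0.93 ± 0.18 and 0.76 ± 0.18. AT1G54540, of the LEA hydroxyproline-rich glycoprotein family, was at 131, 113 and 95.5 in mock and at 152, 319 and 499 with PEO-IAA, a difference of 1.31 ± 0.46. With IAA added it was at 103, 178 and 452, which overlapped with mock, and the difference was 0.82 ± 0.46.

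One named member is a putative regulator of transcription. AT2G47890 encodes a B-box zinc finger protein with a CCT domain, of the CONSTANS-like family. It was at 291, 262 and 243 in mock, 440, 509 and 435 with PEO-IAA and 391, 534 and 672 with PEO-IAA plus IAA, and at 237, 269 and 196 with 1 µM IAA. Neither PEO-IAA group overlapped with mock, and the differences were 0.78 ± 0.18 and 0.95 ± 0.18.

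For the remaining 4 named genes no role is given here. AT1G76600 went from 299, 251 and 301 in mock to 628, 877 and 916 with PEO-IAA, a difference of 1.47 ± 0.33, and to 415, 501 and 1124 with IAA added, a difference of 1.11 ± 0.33. Both treatments cleared mock, while 1 kynurenine array, at 598, also stood above mock beside the others at 270 and 259. AT5G40690 had the highest PEO-IAA difference of the named genes, 1.73 ± 0.34, from 170, 254 and 254 in mock to 466, 969 and 946. With IAA added it was at 214, 457 and 704, and the lowest of these arrays lay within the mock range. Within numbers it was higher by 0.32, 0.83 and 1.45. AT1G05060 was at 253, 261 and 269 in mock, 330, 456 and 695 with PEO-IAA and 316, 378 and 905 with IAA added, with differences of 0.84 ± 0.31 and 0.85 ± 0.31. ZCF37 (AT1G59590) was the least even: 54.8, 106 and 130 in mock, 109, 234 and 446 with PEO-IAA and 80.5, 217 and 388 with IAA added, overlapping in both. Within numbers it was above mock in all 3 pairs of each treatment, by 0.91, 1.08 and 1.73 and by 0.50, 0.98 and 1.53. On the 1 µM IAA arrays it was at 159, 230 and 19.0, and without the third of these its IAA difference was 1.00 in place of 0.03, and without the second it was -0.58.

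**Figure D2:**
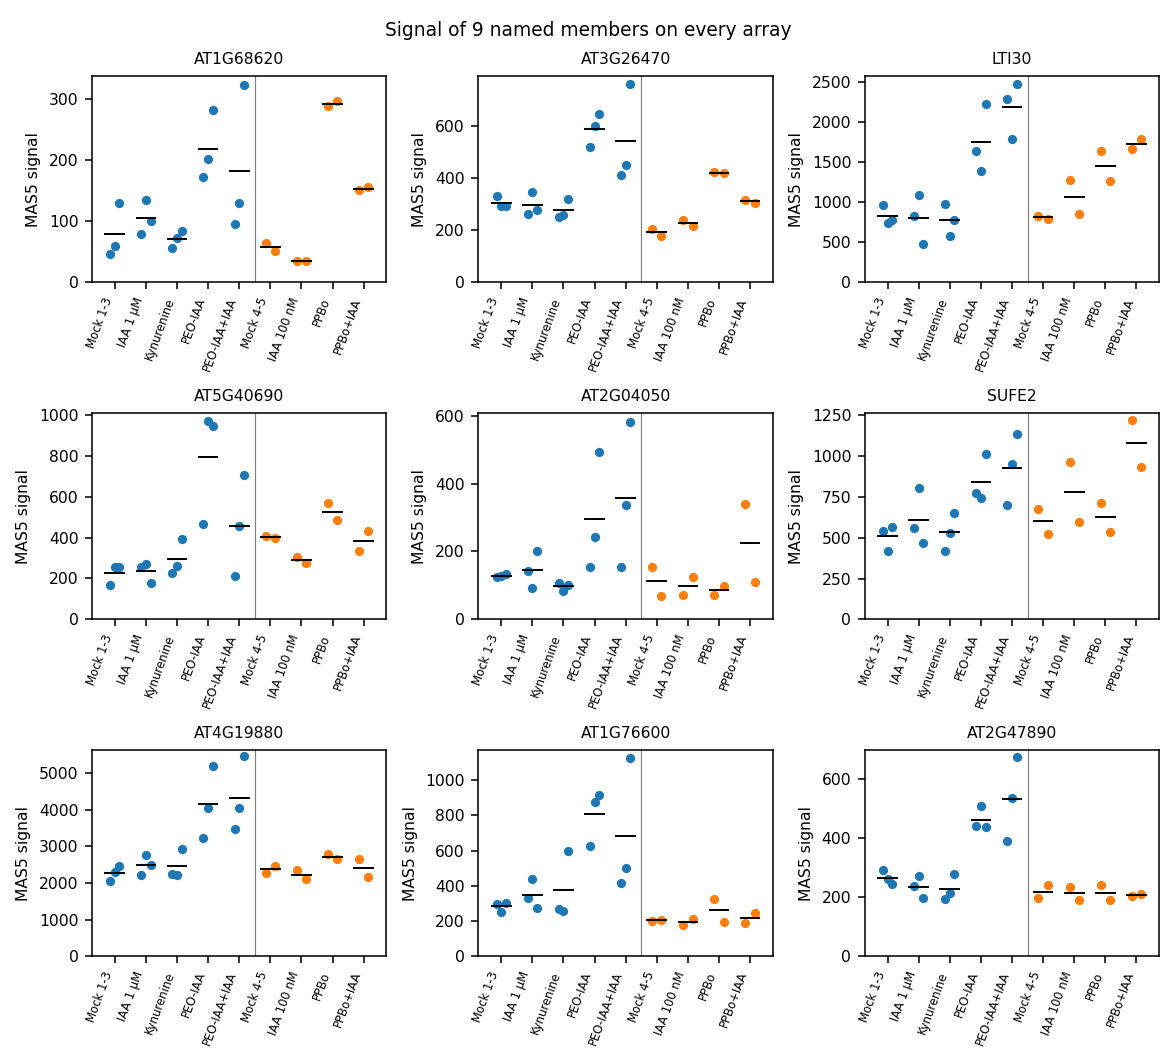
Each panel shows the MAS5 signal of 1 named member on every array, with a point per array and a bar at the group mean; arrays of replicates 1 to 3 are blue and those of replicates 4 and 5 orange. AT1G68620 and AT3G26470 are higher with PPBo than in mock 4 and 5, while AT2G47890 lies at 190 to 240 on the PPBo arrays and at 195 to 241 in that mock.

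The 31 unnamed members held the largest differences. The probe set 263231_at was at 726, 158 and 149 in mock and at 1492, 2078 and 2779 with PEO-IAA, a difference of 2.95 ± 0.63, and 2.56 ± 0.63 with IAA added. The first mock array was several times the others, and the treated arrays still lay above it. The probe set 260932_s_at was at 72.6, 63.4 and 70.9 in mock, 190, 465 and 677 with PEO-IAA and 151, 248 and 685 with IAA added, at 2.39 ± 0.41 and 1.99 ± 0.41. Over the 31 the medians were 1.14 and 0.93, close to 1.03 and 0.88 over the 16 named genes.

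The limits of the rule cut through a continuous range of values. A further 16 probe sets met all conditions but the PEO-IAA difference, 41 all but the difference with PEO-IAA plus IAA, 20 all but the IAA band and 56 all but the mean signal. Just inside for PEO-IAA lay AT1G66760 and SUFE2 at 0.72, and outside it AT1G14130, the auxin oxidase DAO1, at 0.57. Just outside for PEO-IAA plus IAA lay AT5G61820 at 0.68 and AT3G17110 at 0.66. AT5G64250, at 1.16 with PEO-IAA and 1.79 with PEO-IAA plus IAA, missed the band with an IAA difference of 0.52, while AT4G36610 and AT1G68620 were inside at 0.49 and 0.48.

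Adding IAA to PEO-IAA was described without a test, since both groups entered the rule. Of the 48, 35 were lower with IAA than without it, with a median of -0.21. Over all probe sets tested the median was 0.00 and 51.4% were higher. In 2 of the 48 the PEO-IAA plus IAA arrays lay wholly below the PEO-IAA arrays, against 5.97% of all tested, and in 0 wholly above, against 5.75%. Among the named genes AT5G40690 differed most, at -0.86 ± 0.34, then AT1G54540 at -0.49 ± 0.46 and AT1G68620 at -0.41 ± 0.36. LTI30 was at 0.33 ± 0.26 and AT2G04050 at 0.24 ± 0.47, on the other side of 0. In each of these 5 genes the 2 groups of arrays overlapped.

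**Figure D3:**
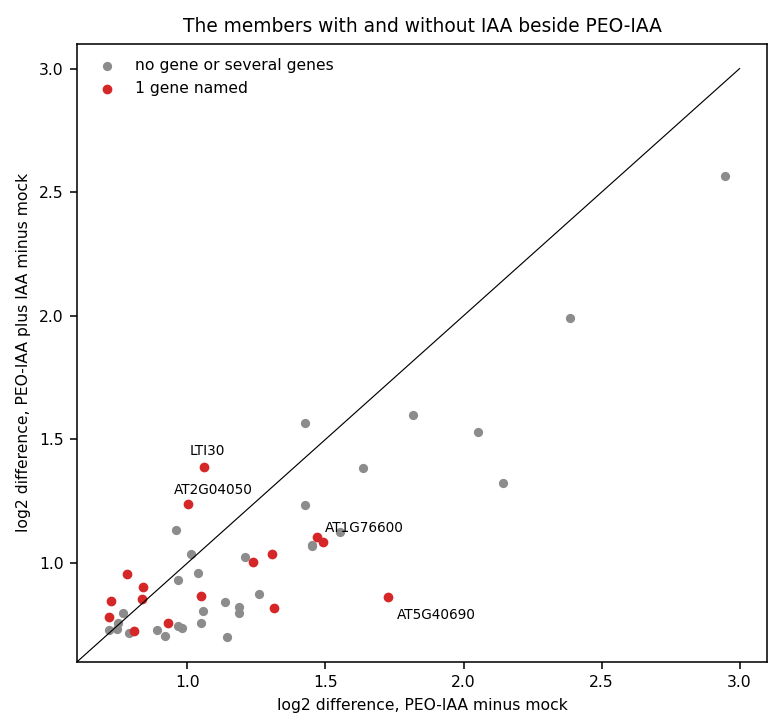
Each point is 1 of the 48 member probe sets, with its log2 difference from mock with PEO-IAA on the x axis and with PEO-IAA plus IAA on the y axis; the line marks equal differences. Of the 48, 35 lie below the line, AT5G40690 farthest among named genes, and LTI30 and AT2G04050 lie above it.

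Whether the members moved with PPBo, which lowers the supply of IAA where PEO-IAA acts at the receptor, was asked on arrays and mocks that the rule used only for the mean signal. With PPBo, 2 of the 48 rose by limma's test over all 15922 probe sets (adjusted p below 0.05), 4.17% of the members against 0.107% of all probe sets called higher, and none fell, against 0.258% called lower. AT1G68620 went from 64.0 and 52.1 in mock to 289 and 297 with PPBo, a log2 difference of 2.20 ± 0.44 (adjusted p = 0.0281). AT3G26470 went from 207 and 180 to 425 and 419, a difference of 1.10 ± 0.22 (adjusted p = 0.0281). The treated and mock arrays were far apart in both genes.

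Among the 48, 37 were higher with PPBo and the median difference was 0.27, beside 0.01 and 51.3% higher over all probe sets tested. Both PPBo arrays lay above both mock arrays in 28 of the 48 (58.3%), against 22.0% of all probe sets tested, and below them in 2 (4.17%), against 20.9%. At an unadjusted p under 0.05 there were 11 members, against 5.17% of all probe sets. LTI30 went from 829 and 790 to 1642 and 1260, a difference of 0.82 ± 0.31 (adjusted p = 0.665), and ZCF37 from 116 and 162 to 268 and 277, a difference of 0.95 ± 0.93 with an adjusted p that rounds to 1. Their arrays also did not overlap. The root markers were lower with PPBo beside these values, with a summed signal of 2219 to 2738 against 3401 to 3701 in mock, without overlap. Their median log2 difference was -0.70, none of the 5 was called by limma and 0 passed at an unadjusted p under 0.05. Their part in the members' values was not tested. AT2G47890 at -0.02 ± 0.22, AT1G66760 at -0.07 ± 0.30, AT2G21640 at -0.08 ± 0.55 and AT2G04050 at -0.27 ± 0.58 were uncalled, with overlapping arrays.

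The 2 calls rest on few arrays. Each was lost whichever of the 4 arrays was left out, where the lone array of a group is assumed to vary like the other groups, with adjusted p from 0.166 to 0.356 for AT1G68620 and from 0.151 to 0.423 for AT3G26470. Their log2 differences then lay from 2.07 to 2.33 and from 1.00 to 1.20. AT3G26470 was 0.71 and uncalled (adjusted p = 0.172) with mock 1 to 5 as 1 control, since its mock signal of 331, 292 and 293 on arrays 1 to 3 was above that on arrays 4 and 5, and AT1G68620 was uncalled after quantile normalization (0.0618). Without the third 1 µM IAA array, which adds to the shared spread, 4 members were called, and with the arrays of replicates 4 and 5 alone 9 were. Calls over all probe sets ran from 17 to 474 across the fits run, so these counts are not read as a result about the members.

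PPBo plus IAA, against the same mock arrays, called 0 of the 48 by limma, against 0.377% of all probe sets called higher and 0.603% called lower. The unadjusted p was under 0.05 in 10 members, against 5.90% of all probe sets. The median was 0.21 beside 0.01 over all, and 37 of the 48 were higher, against 53.5% of all probe sets. Both treated arrays lay above mock in 23 of the 48 (47.9%), against 23.3% of all, and below in 5 (10.4%), against 20.3%. The root markers summed to 2349 to 2452, below mock without overlap, with a median of -1.05 and 1 of 5 called lower, and their part was not tested. LTI30 was at 1665 and 1791 against 829 and 790 in mock, a difference of 1.09 ± 0.31 (adjusted p = 0.156). SUFE2 was at 1223 and 934 against 676 and 525, a difference of 0.83 ± 0.29 (adjusted p = 0.370), and AT1G68620 at 152 and 156, a difference of 1.31 ± 0.44 (adjusted p = 0.308). AT2G04050 was at 340 and 110 against 155 and 68.3, a difference of 0.87 ± 0.58. Each treated array was above the mock of its number, but the lower one lay within the mock range. In the 3 genes before AT2G04050 mock and treated arrays were apart. With the groups of this comparison alone 12 members were called, 11 higher and 1 lower, and without the third 1 µM IAA array 2 were. Calls over all probe sets ran from 63 to 757 across the fits run. These counts are therefore not read as a result about the members.

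Against PPBo alone, adding IAA called 0 of the 48 by limma, against 0.452% of all probe sets called higher and 0.201% called lower. The unadjusted p was under 0.05 in 6 members, against 5.09% of all probe sets. The members went both ways, with 20 higher, 28 lower and a median of -0.13. The arrays did not overlap in 14 that were higher (29.2%, against 20.1% of all) and 15 that were lower (31.2%, against 19.4%). AT1G68620 went from 289 and 297 with PPBo to 152 and 156 with IAA added, a difference of -0.90 ± 0.44, and AT3G26470 from 425 and 419 to 318 and 307, a difference of -0.43 ± 0.22. SUFE2 went the other way, from 710 and 538 to 1223 and 934, at 0.78 ± 0.29 (adjusted p = 0.599), as did AT2G04050 at 1.14 ± 0.58 and 263231_at at 1.79 ± 0.77 (adjusted p = 0.843). The arrays did not overlap in these 5, but none passed the test.

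With 100 nM IAA, again against mock 4 and 5, limma called 0 of the 48, against 0.201% of all probe sets called higher and 0.157% called lower. The unadjusted p was under 0.05 in 0 members, against 3.92% of all probe sets. The median was -0.06 beside 0.02 over all. The arrays lay above mock in 11 of the 48 (22.9%), against 24.3% of all, and below in 12, against 20.3%, shares near those of all probe sets. AT1G68620 was at 35.8 and 34.9 against 64.0 and 52.1 in mock, a difference of -0.61 ± 0.44, and AT5G40690 at 306 and 277 against 407 and 396, a difference of -0.45 ± 0.41. Both were lower on both arrays without passing the test.

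Kynurenine was compared with mock 1 to 3, the arrays that also served the rule, so it is not independent of how the members were chosen. Limma called 0 of the 48, against 0% of all probe sets called higher and 0.0126% called lower. The unadjusted p was under 0.05 in 1 member, against 1.90% of all probe sets. The median was 0.03 beside -0.01 over all, and the members ranged from -0.97 to 0.55. The kynurenine arrays lay above mock in 2 of the 48 (4.17%), against 3.37% of all, and below in 2, against 3.87%. The named genes went from AT2G21640 at -0.42 ± 0.45 to AT4G36610 at 0.55 ± 0.43. Without overlap with mock were AT1G05060, at 295, 278 and 287 against 253, 261 and 269, and AT2G04050, at 106, 83.0 and 102 against 126, 127 and 132. Their differences were 0.13 ± 0.31 and -0.38 ± 0.47, each smaller than its SE and uncalled.

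**Figure D4:**
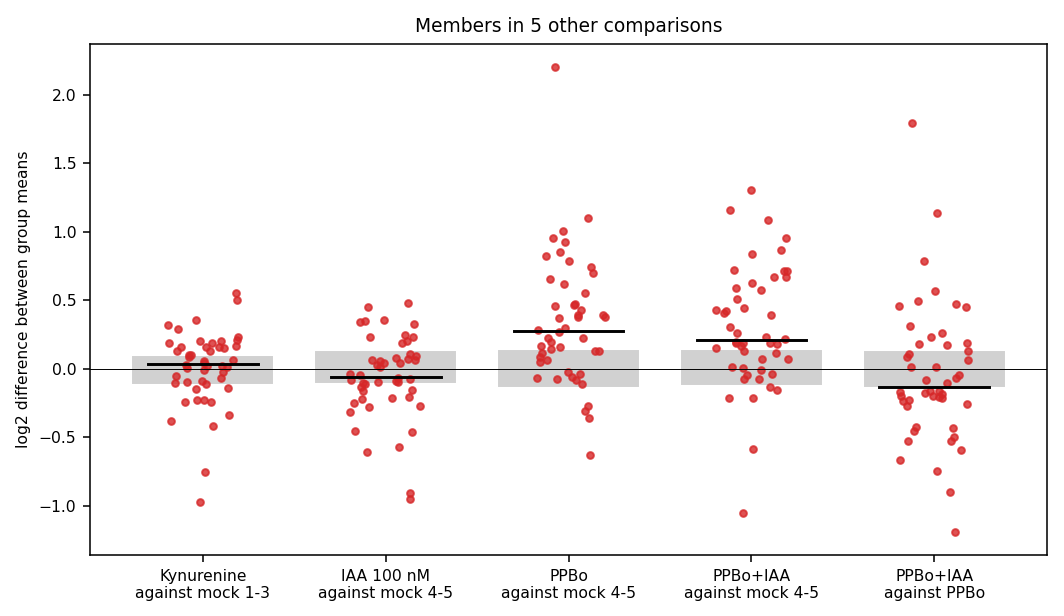
Points are the log2 differences of the 48 member probe sets in 5 comparisons, the black bar is their median, and the grey box spans the middle 50% of all 15922 probe sets tested. The median lies at 0.27 with PPBo and 0.21 with PPBo plus IAA, above the grey box, and inside or just below it in the other comparisons.

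The mock level of many members differed between the 2 series of arrays. Mock 4 and 5 lay below mock 1 to 3 without overlap in 16 of the 48 (33.3%), against 28.5% of all probe sets, and above in 8 (16.7%), against 22.6%. AT5G40690 was at 407 and 396 in mock 4 and 5 against 170 to 254 in mock 1 to 3, a difference of 0.83 ± 0.38, and AT3G26470 was lower there at -0.64 ± 0.20. The members' median SD between arrays of a group, on the log2 scale, was above that of all probe sets in 7 of the 9 groups, at 0.44 against 0.18 in the PEO-IAA plus IAA group and 0.16 against 0.09 in mock 4 and 5. It was below in the other two, at 0.11 against 0.12 with PPBo and 0.0965 against 0.101 with PPBo plus IAA.

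Lists of other detoxification and stress genes were counted with the members set aside, and the tau-class list also without GSTU22, GSTU25, GSTU26 and GSTU28, of which the first and second met the values of the rule. Of 10 carbonyl and enone reductases tested, 5 other tau-class glutathione transferases and 3 of other classes, none was called with PEO-IAA or with PEO-IAA plus IAA, against 0.659% and 1.14% of all probe sets called in either direction by limma. At an unadjusted p under 0.05 there were 1, 0 and 0 of them with PEO-IAA and 1, 1 and 1 with PEO-IAA plus IAA. These lists held 24 loci each, of which 14, 7 and 3 had a probe set naming 1 gene. Most loci of each list were therefore not tested. The alkenal reductase AER was at 0.36 and 0.28 and GSTU20 at -0.12 and -0.15 in the 2 comparisons. AT5G16980, of the same reductase family as AER, was at 0.56 and 0.58. With PPBo plus IAA 1 of the 10 reductases, AT3G04000, was called higher, at 1.12 against mock 4 and 5.

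Of 4 other oxidative stress genes, 6 heat shock genes and 2 salicylate and defence genes, none was called with PEO-IAA or with PEO-IAA plus IAA by limma, and the 1 at an unadjusted p under 0.05 was GRX480 with PEO-IAA. These lists held 27, 23 and 21 loci, most of them not tested. The glutaredoxin GRX480, which interacts with TGA transcription factors, was at 1.01 with PEO-IAA and 0.53 with PEO-IAA plus IAA, and the small heat shock protein gene AT5G51440 at 0.57 and 0.64. The MATE genes AT2G04070 and AT1G71140, which share their family with 2 members, were at 0.40 and 0.22 with PEO-IAA and at 0.60 and 0.42 with PEO-IAA plus IAA. Neither was called. AT1G71140 was at 1.09 with PPBo and 1.10 with PPBo plus IAA, uncalled in both. The single genes tested of the jasmonate list (PDF1.2, 0.31) and of the phosphate, sulphur and metal list (AT1G04770, 0.12) were not called with PEO-IAA, and no TGA or stress NAC factor was tested. As a check of the treatments, all 7 tested genes of an early auxin response list rose with IAA at 1 µM (0.967% of all probe sets called higher), and 2 of them fell with PEO-IAA, the auxin-conjugating enzyme genes GH3.3 at -2.19 ± 0.42 and WES1, also GH3.5, at -1.50 ± 0.27. With PEO-IAA plus IAA 5 of the 7 were higher than mock (0.540% of all probe sets) and 7 were higher than with PEO-IAA alone (0.678%).

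By locus code, 8 of the 16 named genes lie on chromosome 1, 3 on chromosome 2, 2 each on chromosomes 3 and 4 and 1 on chromosome 5. Among these 16 no direct neighbours were found, and the positions of the other 32 members were not analysed here. The nearest of the 16 were AT1G68620 and AT1G68850, with 27 protein-coding genes between them.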

How the data were processed

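RNA of 23 seedling samples was hybridised to Affymetrix ATH1 arrays with 1 biotin-labelled sample each. The authors deposited MAS5 signals, which are linear intensity values (MAS5 is named in the submitters' processing notes, its version is not). Their scaling shows in a 2% trimmed mean of 500.04 to 500.05 on each array, and no further scaling was applied. Detection calls were not used here. Precision is limited by how few arrays each group had.

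Leaving out 64 control probe sets of 22810, the 15922 with a mean above the 30th percentile (a signal of 61.8) were tested, among them all 48 members. Values were taken to log2(signal + 7.56), the 10th percentile of all values, which understates changes of dim probe sets. Limma 3.58.1 (R 4.3.3; lmFit, eBayes with a trended prior) fitted 9 group means to all arrays, with 14 residual degrees of freedom and Benjamini-Hochberg adjustment over all tested probe sets within each comparison; every adjusted p is from it. The fit was tested on simulated data. Of simulated log2 changes of 1 it called 52% to 55% in the comparisons of replicates 4 and 5, and 70% with kynurenine. Of changes of 2 it called 94% to 97%. Many changes of 1 can therefore go uncalled.

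Names came from the platform annotation through gene identifiers to the TAIR10.1 table: 13513 probe sets had 1 gene (13436 matched), 503 several and 8794 none here. Members, lists and tests were chosen with earlier results of these data known. Genes named were the members naming 1 gene, the 2 unnamed members with the largest smaller difference, members called in a comparison, probe sets next to a limit of the rule, and up to 4 genes per list, a gene with several probe sets being represented by the brightest. Values on every array are given for more members than the rule for names asked. Same-numbered kynurenine and mock arrays deviated together (r = 0.432 to 0.631 across probe sets), so these numbers pair the samples. They do so too for both PEO-IAA groups (0.413 to 0.635). For 1 µM IAA r was -0.133 to 0.032. The mean of that group includes its replicate 3 array, with the GAPDH ratio of 24.4, and every deviation was taken from this mean. Whether the numbers pair the 1 µM IAA samples could therefore not be judged. Alternatives covered the pseudocount, the filter, the arrays in the fit, array weights, quantile normalization, a replicate block and the mock. No promoter motif was searched here.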

Additional observations from a re-analysis of the deposited data

How the results depend on the processing

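The number of probe sets that met the rule stayed within 1.5 times of 48 with other pseudocounts, quantile normalization, mock 1 to 5 as 1 control (68, of which 33 were among the 48), a level minimum of 200, a narrower IAA band (40) or none (68). It was 104 with no level minimum and 19 with both differences 1 or more, and leaving out 1 array gave 25 to 65. For PPBo against mock, 2 members were called, 1 with a mean above the median or after quantile normalization, 6 with the groups of the contrast alone or with array quality weights, 9 with replicates 4 and 5 alone, 4 without the third 1 µM IAA array, and 0 to 1 without 1 of its own arrays. For PPBo plus IAA against mock the count of 0 became 12, 10 and 9 with its groups alone, replicates 4 and 5 alone and array weights, 2 without the third 1 µM IAA array, and 0 to 1 without 1 of its own arrays. For PPBo plus IAA against PPBo the count of 0 became 5 and 3 with its groups alone and with replicates 4 and 5 alone, and was 0 without any 1 array. The counts of 0 with kynurenine and with 100 nM IAA stood under every alternative run. Over all probe sets the calls ranged from 17 to 474 with PPBo (58 in the reported fit), 63 to 757 with PPBo plus IAA (156), 50 to 496 for PPBo plus IAA against PPBo (104), 12 to 494 with 100 nM IAA (57) and 0 to 10 with kynurenine (2). Some of these fits had fewer arrays or probe sets. The median SD over all probe sets, on the log2 scale, was 0.08 to 0.12 in the groups of replicates 4 and 5. It was 0.16 to 0.31 in those of replicates 1 to 3, highest with 1 µM IAA. The cause of these shifts was not tested.

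With the replicate block the members called were 11 for PPBo, 13 for PPBo plus IAA and 6 for PPBo plus IAA against PPBo, in fits of replicates 4 and 5 alone, where the samples share only a number (r of deviations from 0.0294 to 0.167). Calls over all probe sets reached 474, 757 and 496 in these comparisons under some fit. The block counts are given without their own share of all probe sets and are not read as a result about the members. With kynurenine, where the numbers pair the samples, the block called 0 members and 1 probe set in all, and it changed no member's call. The median over members kept its sign under every alternative except with kynurenine, where it went from -0.05 to 0.10. Low signals are the least certain, and without detection calls it was not judged which members lay above background.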
